A study of Homo sapiens with 15 samples.

Results

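The genes of 5 transcription factors of the epithelial-mesenchymal transition, SNAI1, SNAI2, ZEB1, ZEB2 and TWIST1, were examined in the peak lists of chromatin immunoprecipitation with sequencing (ChIP-seq) from MDA-MB-231 cells. The rule names the genes and uses no measured value, though the choice was made with earlier results of these data known. Every peak sharing at least 1 bp with a gene or its 20 kb flanks (hg19) was taken. This gave 34 of the 252459 peaks of H3K4ox replicate 1, 37 of the 246967 of H3K4ox replicate 2, 2 of the 38584 of H2A.Z and 22 of the 109607 of RUVBL2. The 5 windows together spanned 559.2 kb. The cells, for which the labels name no treatment or knockdown, were MDA-MB-231, an established triple-negative breast cancer line with a mesenchymal shape, so all values come from 1 line and no epithelial line stood beside it. The H3K4ox antibody was handmade, per the labels, and the H2A.Z and RUVBL2 antibodies were commercial. Of the 15 samples, 11 (input, RNA-seq and ATAC-seq) were not analysed here, so neither expression nor accessibility of these genes was measured.

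In the epithelial-mesenchymal transition, cells lose their junctions and polarity and gain motility. SNAI1 (Snail) and SNAI2 (Slug) are zinc-finger repressors that bind E-boxes, and they silence the E-cadherin gene CDH1 among others. ZEB1 and ZEB2 are zinc-finger and homeodomain repressors that bind the same E-boxes and are held down by microRNAs of the miR-200 family. TWIST1 is a basic helix-loop-helix factor that binds E-boxes as a dimer. LOXL2, the lysyl oxidase that the series is about, is known to oxidise lysine 4 of histone H3, which gives the mark H3K4ox, and is also known as a partner of SNAI1 in the repression of CDH1. H2A.Z is a variant of histone H2A that often marks promoters and enhancers. RUVBL2 is an ATPase of the remodelling complexes that exchange H2A.Z.

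The promoters of ZEB1 and ZEB2 could be matched to RefSeq sequences (GRCh38.p14) and are shown because no list had a peak at these start sites. The table held 7 ZEB1 starts, spread over 3243 bp, and 1 ZEB2 start. The sequences are the 250 bases before the first ZEB1 start (chr10:31318167-31318416, plus strand) and before the ZEB2 start (chr2:144520120-144520369, minus strand), 5′ to 3′. Capitals mark CACCTG or CAGGTG, the 2 strands of the E-box form bound by SNAI and ZEB proteins.
ZEB1 start 1: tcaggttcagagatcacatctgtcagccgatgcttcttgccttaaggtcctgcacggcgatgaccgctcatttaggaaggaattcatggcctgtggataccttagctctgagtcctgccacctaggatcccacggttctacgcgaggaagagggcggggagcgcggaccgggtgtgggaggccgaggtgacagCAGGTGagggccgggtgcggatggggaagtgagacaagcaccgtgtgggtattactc
ZEB2 start 1: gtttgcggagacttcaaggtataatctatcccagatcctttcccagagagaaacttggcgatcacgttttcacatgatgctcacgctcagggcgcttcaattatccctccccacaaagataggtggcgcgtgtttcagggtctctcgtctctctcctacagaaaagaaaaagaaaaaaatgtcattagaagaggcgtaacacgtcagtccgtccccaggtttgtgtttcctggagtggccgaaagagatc
Of the 8 promoter entries, 2 held CACCTG or CAGGTG, with 1 match before the first ZEB1 start and 2 before the third, 799 bp further along. Among all 35116 promoters of the same length 17.5% held a match. The ZEB2 promoter had none of these, and 1 match to the general E-box CANNTG, which 61.8% of all promoters held and which includes the more specific form. A match is a string of letters only, and its absence from 250 bases says nothing about binding. CG pairs numbered 15 before the first ZEB1 start and 12 before the ZEB2 start, against a median of 11 over all promoters.

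No library had a peak at any of the 5 start sites. Within 2.5 kb on each side, 0 of 5 genes had a peak of H3K4ox replicate 1, 0 of 5 of replicate 2, 0 of 5 of H2A.Z and 0 of 5 of RUVBL2. Across the genome 35.8%, 34.8%, 6.75% and 17.9% of 5 kb windows held a peak of these lists in that order. A peak of any list was held by 46.6%, so windows without a peak were common. These windows lie anywhere in the genome, and the share at the start sites of other genes was not counted. Widening to 5 kb on each side brought in 1 gene, SNAI1, for both H3K4ox lists and for RUVBL2, and none for H2A.Z. Within 10 kb there were 3 genes for H3K4ox replicate 1 (SNAI1, ZEB1 and TWIST1), 2 for replicate 2 and 2 for RUVBL2 (both times SNAI1 and ZEB1), and 0 for H2A.Z. The ZEB1 starts in RefSeq lie within 3.24 kb of each other, which is less than the distance from the ZEB1 start site used here to any peak on either side.

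The nearest peak lay at very different distances. At SNAI1 it was 4.92 kb upstream for H3K4ox replicate 1, 3.96 kb upstream for replicate 2 and 4.92 kb upstream for RUVBL2. At ZEB1 the nearest RUVBL2 peak was 5.28 kb upstream, and the nearest H3K4ox peaks were 8.23 kb upstream in replicate 1 and 8.22 kb downstream in replicate 2. At TWIST1 H3K4ox lay 7.04 kb upstream in replicate 1 and 13.4 kb downstream in replicate 2, and RUVBL2 was 66.4 kb away, outside the window. The SNAI2 values were 18.3 kb in both H3K4ox lists, 18.8 kb for H2A.Z and 18.7 kb for RUVBL2, all upstream. ZEB2 was the farthest in all 4 lists, with 26.0 kb for H3K4ox replicate 1, 102.2 kb for replicate 2, 112.9 kb for RUVBL2 and 162.6 kb for H2A.Z. For H2A.Z the distances were 20.7 kb at SNAI1, 32.7 kb at ZEB1 and 67.7 kb at TWIST1, each outside the window.

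Each start site lay in a stretch without a peak of any list. That stretch was 11.7 kb long at SNAI1, 13.5 kb at ZEB1, 20.4 kb at TWIST1, 54.5 kb at SNAI2 and 128.1 kb at ZEB2. Stretches at least as long as those of SNAI1 and ZEB1 make up 57.4% and 53.4% of the genome, and as long as that of TWIST1 40.8%. Those as long as the SNAI2 stretch make up 14.8% and as long as the ZEB2 stretch 6.43%.

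**Figure D1:**
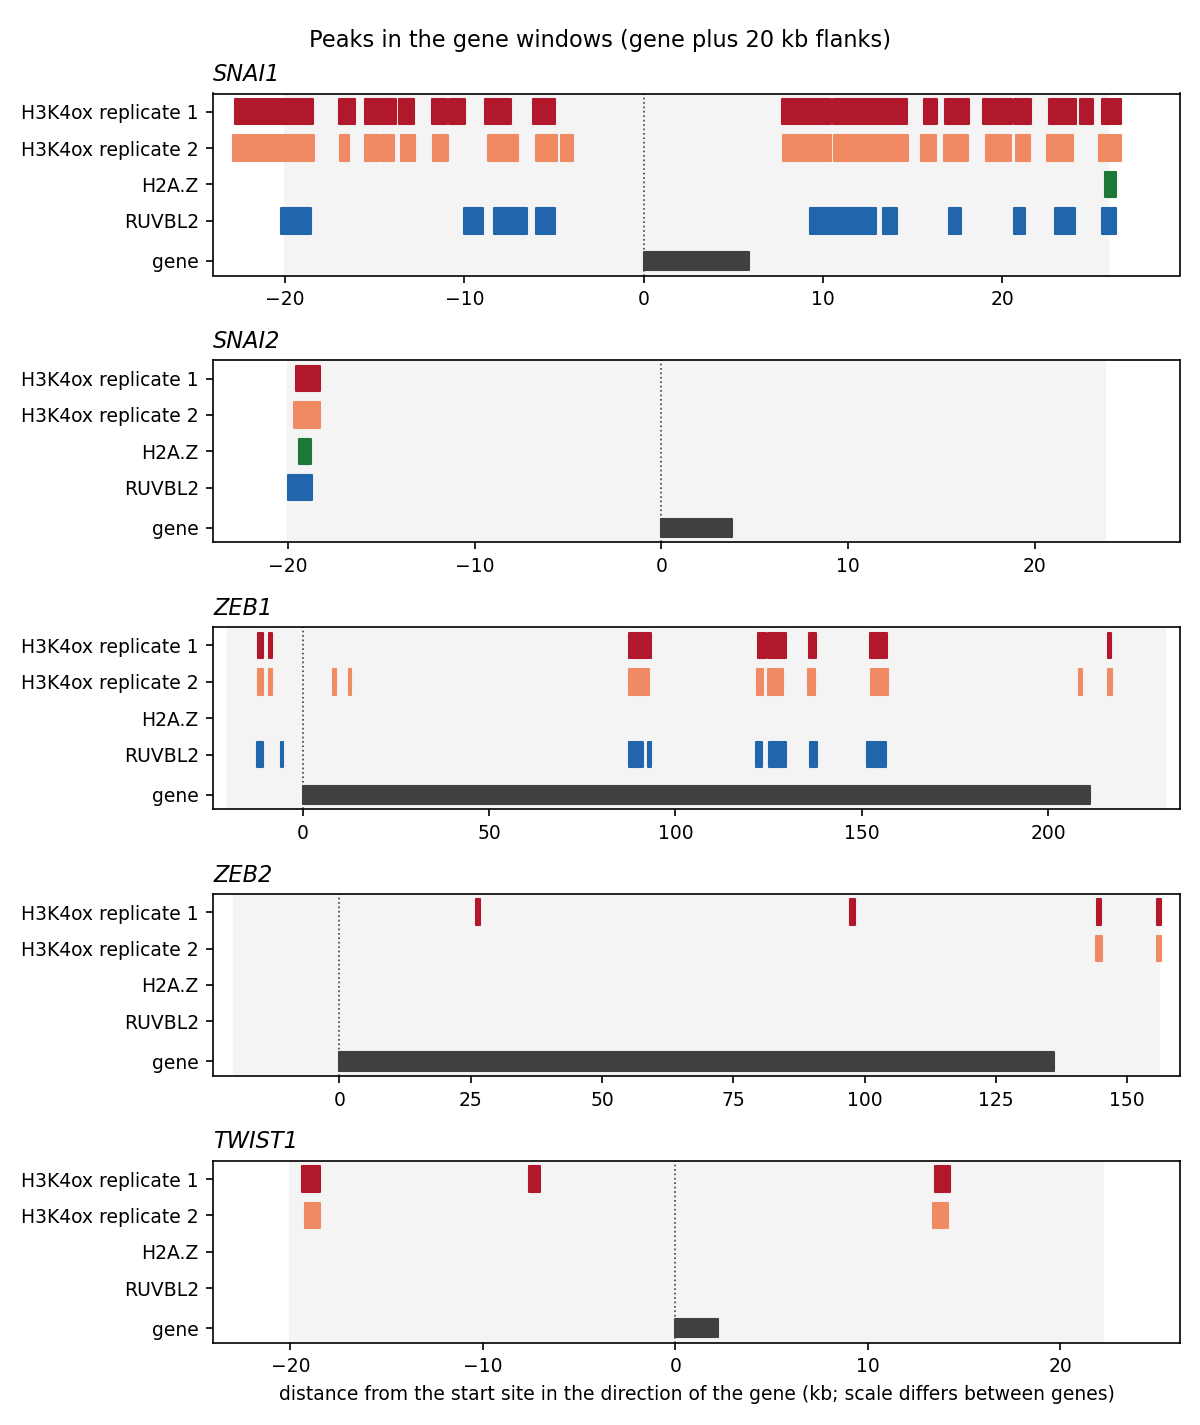
Peaks of each list (rows) in the 5 gene windows against the distance from the start site in kb, in the direction of the gene, with the window shaded and the gene as a dark bar. SNAI1 has peaks on both sides of a bare gene, ZEB1 a cluster from 87.4 to 157.0 kb inside the gene, SNAI2 1 site 18.3 kb upstream, and ZEB2 and TWIST1 H3K4ox peaks alone.

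Between genes the peak numbers differed more than between the H3K4ox replicates. H3K4ox gave 3.81 ± 0.15 peaks per 10 kb (SD, n = 2) at SNAI1, 0.592 ± 0.168 at TWIST1, 0.458 ± 0.141 at ZEB1, 0.229 ± 0 at SNAI2 and 0.170 ± 0.080 at ZEB2, each with n = 2. The genome-wide densities were 0.839 in replicate 1 and 0.821 in replicate 2. SNAI1 stood above the other 4 genes by far more than the SD. TWIST1 and ZEB1 differed by less than their SDs, and SNAI2 and ZEB2 by less than the SD of ZEB2. RUVBL2 gave 2.61 peaks per 10 kb at SNAI1, 0.358 at ZEB1, 0.229 at SNAI2 and 0 at ZEB2 and TWIST1, against 0.364 in the genome. H2A.Z gave 0.218 at SNAI1, 0.229 at SNAI2 and 0 at the other 3 genes, against 0.128 in the genome. H2A.Z and RUVBL2 have 1 library each, so no test was made: with 2 libraries in one group and 1 in the other, the smallest p of a two-sided exact permutation test is 0.33. Nothing in the labels says that the 2 H3K4ox libraries came from separate cultures, so their SD may be technical.

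To set lists of unequal length side by side, each density was divided by that of its own list over the genome. For H3K4ox this relative density was 4.60 ± 0.26 at SNAI1 (SD, n = 2) and 0.766 ± 0.058 over the 5 windows together (SD, n = 2), a pooled value that went above that of the genome, to 1.88, with lists of equal length. By bases covered, the 5 windows had 1.04 and 1.03 times the genome's share in replicates 1 and 2. The pooled values mix unlike windows: SNAI1 gave 17 of 34 and 18 of 37 H3K4ox peaks and 12 of 22 RUVBL2 peaks. For RUVBL2 the relative density was 7.18 at SNAI1 (95% exact Poisson interval 3.71 to 12.5), 0.983 at ZEB1 (0.450 to 1.87) and 1.08 over the 5 windows (0.677 to 1.64). These intervals treat peaks as independent and cover counting error only. The RUVBL2 count of 0 allowed a relative density of up to 0.575 at ZEB2 and up to 2.40 at TWIST1, so in the shorter TWIST1 window a density below that of the genome was not detectable. For H2A.Z the single peaks gave 1.70 at SNAI1 (0.0430 to 9.47) and 1.78 at SNAI2 (0.0451 to 9.93), intervals that reach far to both sides of the genome's density.

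**Figure D2:**
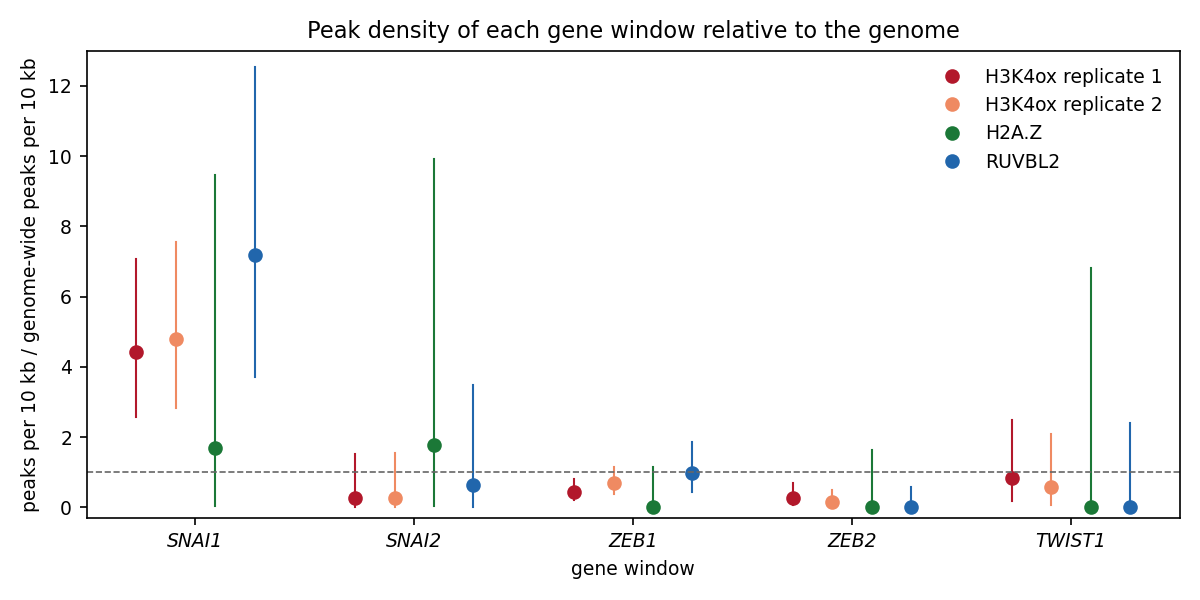
Peaks per 10 kb of each gene window divided by peaks per 10 kb of the same list over the genome (y axis, dashed line at the genome's own density), for the 4 lists, with 95% exact Poisson intervals as bars. For H3K4ox and RUVBL2 the SNAI1 bars lie wholly above the line, and those at ZEB2 wholly below it.

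SNAI1 (hg19 chr20:48599513-48605420, plus strand, 5.908 kb) was the gene with the densest flanks. Its window held 17 peaks of H3K4ox replicate 1, 18 of replicate 2, 12 of RUVBL2 and 1 of H2A.Z. Genome windows of the same length had a median of 3, 3, 1 and 0 peaks of these lists. At least as many peaks were found in 1.64% of the 65547 such windows for H3K4ox replicate 1, 1.1% for replicate 2, 0.603% for RUVBL2 and 34.3% for H2A.Z. The H3K4ox peaks covered 49.5% ± 2.5 of the window (SD, n = 2) and the RUVBL2 peaks 27.1%, while those lists covered 8.98%, 8.48% and 4.07% of the genome.

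**Figure D3:**
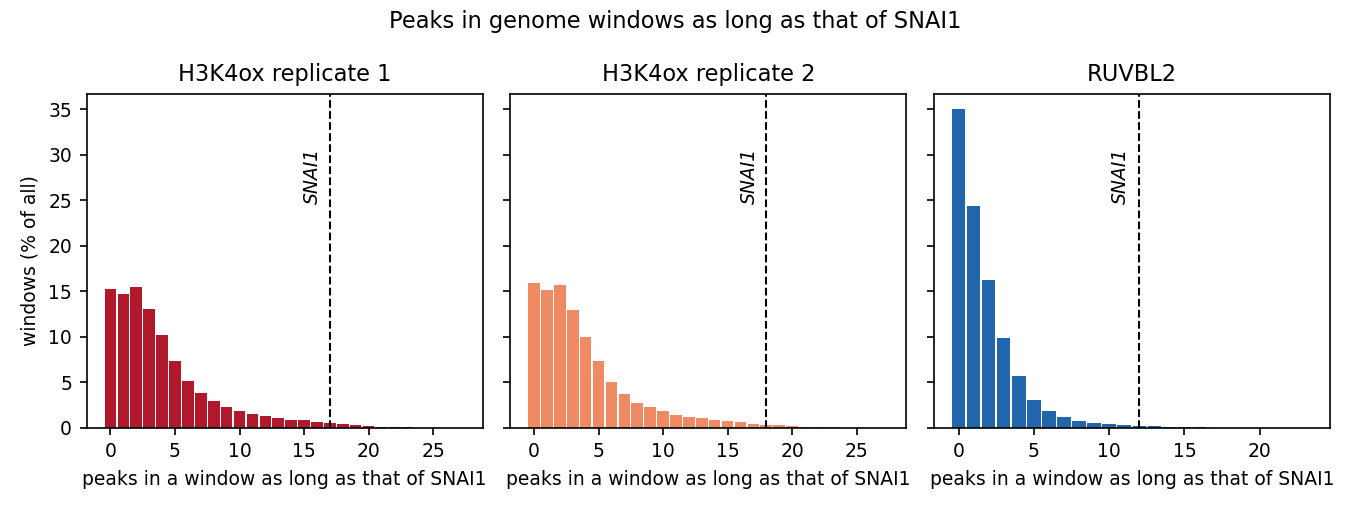
Share of all genome windows of 45.9 kb (y axis, %) by the number of peaks they hold (x axis), for both H3K4ox lists and RUVBL2, with the SNAI1 count as a dashed line. The SNAI1 counts of 17, 18 and 12 lie in the upper tails, with 1.64%, 1.1% and 0.603% of windows at or beyond them.

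For H3K4ox and RUVBL2 the surroundings of SNAI1 were dense too. Within 500 kb on each side of the start site the H3K4ox lists had 2.88 and 2.72 peaks per 10 kb and RUVBL2 1.38. Against this neighbourhood the SNAI1 window was 1.29-fold and 1.44-fold denser for the H3K4ox replicates and 1.89-fold for RUVBL2. Against all of chromosome 20 the ratios were 2.54, 2.76 and 4.42. For H2A.Z, with 1 peak in the window, the neighbourhood had 0.49 peaks per 10 kb, and the ratio was 0.445 against it and 1.31 against the chromosome. The part that DNA copy number or gene density has in these values was not tested. In RefSeq order the protein-coding neighbours of SNAI1 are RNF114 and PEDS1-UBE2V1, and to which gene a peak in the flanks belongs was not tested.

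The SNAI1 gene itself held no peak of any list. Upstream there were 8 and 9 H3K4ox peaks (replicates 1 and 2) and 4 RUVBL2 peaks, and downstream 9 and 9 H3K4ox peaks, 8 RUVBL2 peaks and 1 H2A.Z peak. The gene sat in the 11.7 kb bare stretch (chr20:48595556-48607258), the longest in its window, where the next longest measured 1.39 kb. The peak bordering it upstream (chr20:48594922-48595555) was in H3K4ox replicate 2 only and had a score of 65.0. The score is the authors' own value for a peak, with no stated unit and a minimum of 50 in each list, and is used here to rank peaks within a list. The peaks bordering it downstream were in both replicates and had scores of 306.8 and 183.8.

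The best SNAI1 peaks were among the best of the H3K4ox lists. The peak from 10.6 to 14.7 kb downstream of the start site had a score of 1032 in replicate 1 and 706.3 in replicate 2, which 0.222% and 0.978% of those lists reach. The peak from -22.9 to -18.4 kb scored 950.1 in replicate 1 and 1073 in replicate 2, reached by 0.341% and 0.171%. These 2 peaks were the best in both replicates and more than 4 kb wide. For RUVBL2 the best peak lay at -8.32 to -6.52 kb with a score of 246.1, which 7.08% of that list reach, and the median SNAI1 score of 81.5 was near the list's median of 73.4. RUVBL2 peaks at SNAI1 were thus many in number and mostly middling in score.

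Of the 15 H3K4ox shared regions at SNAI1, 9 met a RUVBL2 peak, of which 2 also met an H2A.Z peak. Over the genome 38.5% of shared regions met RUVBL2. A shared region is a merged run of H3K4ox peaks that holds at least 1 of each replicate. The 9 had a median width of 1614 bp and the 6 without RUVBL2 one of 904.5 bp, so width moved with the overlap. In the genome 50.4% of shared regions of 942 to 4526 bp, the range of the 9, met RUVBL2, and 35.2% of those of 877 to 1743 bp, the range of the 6. In the other direction 11 of the 12 RUVBL2 peaks lay in a shared region, against 64.4% of all RUVBL2 peaks. Shared regions covered 50.4% of the SNAI1 window, 6.57 times the genome's share. The 64.4% was matched neither for this nor for RUVBL2 peak width.

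**Figure D4:**
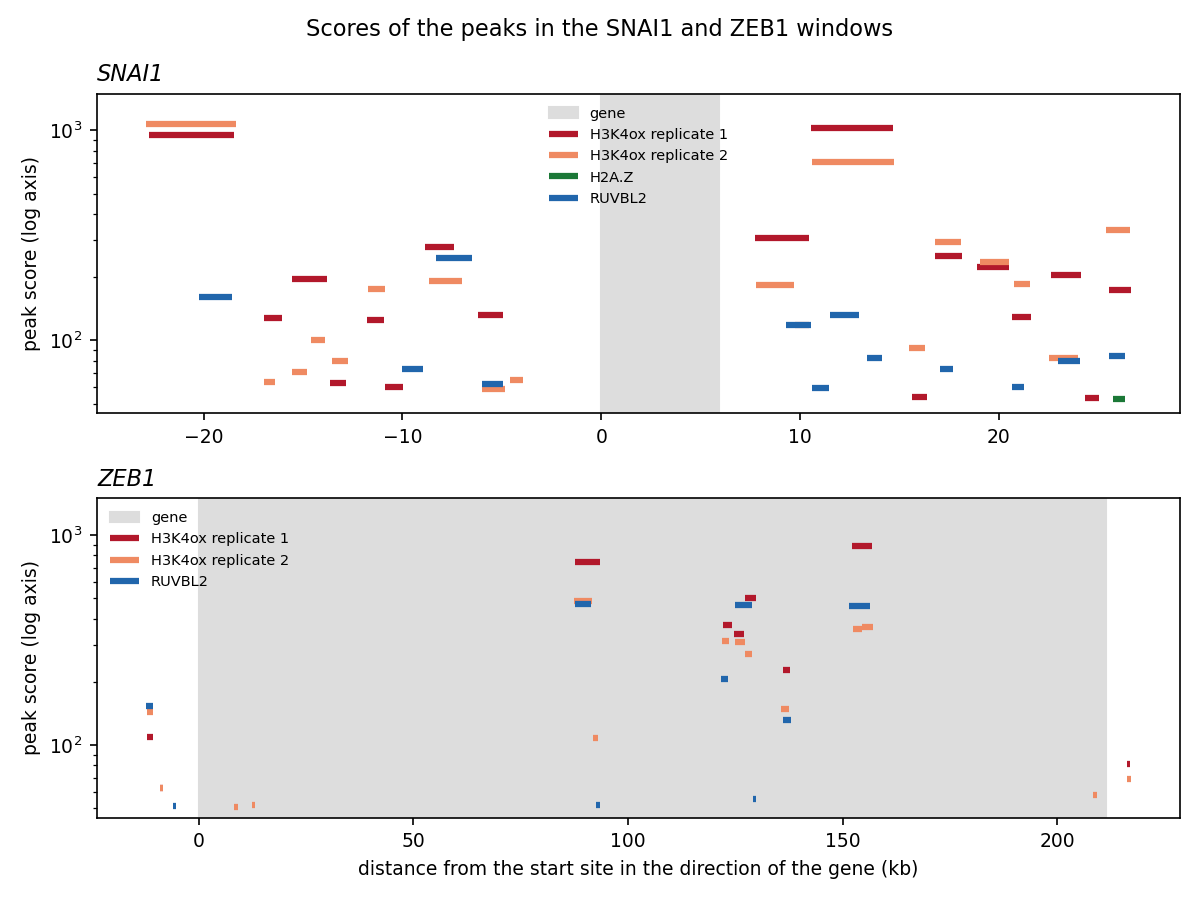
Score of each peak (y axis, log scale, no unit given) drawn over its extent in kb from the start site (x axis) in the SNAI1 and ZEB1 windows, coloured by list, with the gene shaded. The best SNAI1 peaks flank the gene, and the best ZEB1 peaks lie inside it.

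ZEB1 (hg19 chr10:31607424-31818742, plus strand, 211.3 kb) had most of its peaks inside the gene, which fills most of its window. The body held 0.284 and 0.521 H3K4ox peaks per 10 kb (replicates 1 and 2) and 0.331 of RUVBL2. The 20 kb upstream held 1 per 10 kb in each of these lists, from 2 peaks each. The 20 kb downstream held 0.5, 0.5 and 0. Peaks were thus sparser in the body than upstream. The window held 9 peaks of H3K4ox replicate 1, 14 of replicate 2, 9 of RUVBL2 and 0 of H2A.Z. Windows of the same length had a median of 15, 15, 7 and 2. At least as many peaks occurred in 77.9% of the 11963 such windows for H3K4ox replicate 1, 56% for replicate 2 and 39.5% for RUVBL2, and 23.2% had no H2A.Z peak. The ZEB1 window was thus ordinary in peak number. By bases covered, H3K4ox took 8.89% ± 0.06 of it (SD, n = 2), close to the genome's share, and RUVBL2 7.72%, which is 1.90 times the genome's share.

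All 6 H3K4ox shared regions in the ZEB1 gene body lay in 69.6 kb (chr10:31694873-31764456, 87.4 to 157.0 kb from the start site), 32.9% of the body. This stretch was chosen after its peaks were seen, so its density is a description. It held all 6 body peaks of H3K4ox replicate 1, 8 of 11 of replicate 2 and all 7 of RUVBL2. The regions were wide, from 1948 to 5922 bp, and filled 20.2 kb. Their scores in replicate 1 were 746.4, 371.9, 338.2, 501.6, 228.6 and 891.4 from 5′ to 3′. Replicate 2 had 486.5 and 107.8 in the first region, then 313.7, 309.0, 270.1 and 149.1, and 356.6 and 363.0 in the last. The first region and the last stood out in replicate 1, whereas in replicate 2 both were split into a pair of peaks and the last ranked below the first.

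RUVBL2 lay on every one of these 6 regions. Its best ZEB1 peaks scored 471.6 (87.6 to 91.2 kb), 464.2 (125.0 to 128.7 kb) and 461.7 (151.5 to 156.4 kb), which 1.11%, 1.19% and 1.20% of the RUVBL2 list reach. The last was 4912 bp wide, a width that 0.212% of the list reach. Among all shared regions of 1948 to 5922 bp in the genome, 84.1% of 26936 met RUVBL2, so 6 of 6 was near the share for regions this wide. No H2A.Z peak lay over or near them. The count of 0 allows a relative density of up to 1.14. The H2A.Z list had none from chr10:31574747 to 31938293, 363.5 kb that take in the whole gene.

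Outside the gene body ZEB1 had weaker sites. The region at -12.1 to -10.6 kb had H3K4ox scores of 109.5 and 143.8 and a RUVBL2 peak of 153.0, and the region at -9.02 to -8.23 kb had H3K4ox scores of 62.2 and 62.1 with no RUVBL2. The RUVBL2 peak nearest the start site (chr10:31601521-31602147) scored 51.1, which 95.9% of its list reach, and met no H3K4ox peak. The replicate 2 peak nearest the start site scored 50.7 and was missing from replicate 1.

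SNAI2 (hg19 chr8:49830239-49833999, minus strand, 3.761 kb) had 1 site, and all 4 lists held it. It lay -19.7 to -18.3 kb from the start site, near the edge of the window. The H3K4ox peaks scored 243.6 in replicate 1 and 157.2 in replicate 2, reached by 10.6% and 19.9% of those lists. The RUVBL2 peak scored 127.6, reached by 21.3%, and the H2A.Z peak 51.4, reached by 93.6%, which is close to the lowest score deposited. At least 1 peak was found in 84% of the 68764 windows as long as that of SNAI2 for H3K4ox replicate 1, 83.4% for replicate 2, 63.7% for RUVBL2 and 33.3% for H2A.Z. The number of peaks at SNAI2 was therefore unremarkable in each list.

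ZEB2 (hg19 chr2:145141942-145277958, minus strand, 136.0 kb) had 4 peaks of H3K4ox replicate 1, 2 of replicate 2 and none of H2A.Z or RUVBL2. Windows of its length had a median of 11, 10, 1 and 5 peaks of H3K4ox replicate 1, H3K4ox replicate 2, H2A.Z and RUVBL2. At least as many H3K4ox peaks were found in 87.9% (replicate 1) and 93.4% (replicate 2) of the 17085 windows, no H2A.Z peak in 31.8% and no RUVBL2 peak in 9.08%. The peaks in both replicates lay beyond the end of the gene, 144.1 to 145.2 kb from the start site (scores 114.8 and 100.6) and 155.7 to 156.5 kb from it (129.5 and 71.2). The gene body held 2 peaks of replicate 1, with scores of 94.8 and 70.1, and neither met a peak of replicate 2. ZEB1 and its relative ZEB2 thus differed in the lists, with wide H3K4ox and RUVBL2 peaks in the body of the one and in the other a body without a peak in both replicates. The difference was not tested.

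TWIST1 (hg19 chr7:19155091-19157295, minus strand, 2.205 kb) had 3 peaks of H3K4ox replicate 1, 2 of replicate 2 and none of H2A.Z or RUVBL2. At least as many H3K4ox peaks were found in 51.3% (replicate 1) and 66.4% (replicate 2) of the 71300 windows of its length, no H2A.Z peak in 67.5% and no RUVBL2 peak in 37.2%. The best score was 107.3 in replicate 1, at -19.4 to -18.5 kb, where replicate 2 scored 67.1. In replicate 2 the best was 93.2, 13.4 to 14.2 kb from the start site, where replicate 1 scored 53.9. The order of these 2 sites was thus opposite in the replicates. The peak nearest the start site, 7.04 kb upstream with a score of 56.3, was in replicate 1 alone.

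The 4 shared regions of ZEB2 and TWIST1 met no RUVBL2 peak. They were narrow, from 800 to 1149 bp. In the genome 22.8% of the 56855 shared regions of 800 to 1149 bp met RUVBL2, and 4 regions are too few to set 0 of 4 apart from that share.

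Over the 5 genes 29 shared regions were found, of which 17 met RUVBL2 (58.6%, 95% Wilson interval 40.7 to 74.5), against 38.5% of regions of every width in the genome. The 29 were wider, with a median of 1423 bp against 1080 bp, and wide regions met RUVBL2 more often, as the shares by width above show, so the 2 percentages are not matched. Of the 22 RUVBL2 peaks, 20 lay in a shared region (90.9%, 72.2 to 97.5), against 64.4%. Of the 22, 12 were at SNAI1, where shared regions covered 50.4% of the window. The 64.4% was matched neither for this nor for RUVBL2 peak width. H2A.Z was met by 3 of the 29 (10.3%, 3.58 to 26.4), and the genome's share was 10.3%. All of the RUVBL2 overlap came from SNAI1 (9 regions), ZEB1 (7) and SNAI2 (1). Peaks of 1 gene share a locus and are not replicates.

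Joint sites, shared regions that met both H2A.Z and RUVBL2, numbered 2 at SNAI1, 1 at SNAI2 and 0 at ZEB1, ZEB2 and TWIST1. They were 3 of 29 regions (10.3%), against 6.21% in the genome (10100 of 162645). The strongest was the SNAI1 upstream region (chr20:48576624-48581149, 4526 bp), with H3K4ox scores of 950.1 and 1073, RUVBL2 peaks of 57.0, 119.1 and 161.0 and an H2A.Z peak of 83.1. It reached across the window's edge, and its H2A.Z peak (chr20:48578089-48578782) and the first 2 RUVBL2 peaks lay just outside. The SNAI1 downstream site (chr20:48624908-48626143, 1236 bp) had H3K4ox scores of 173.8 and 335.3, a RUVBL2 peak of 84.3 and an H2A.Z peak of 52.6, and it crossed the other edge. The SNAI2 site (chr8:49852264-49853686, 1423 bp) is described above. Each joint site was more than 18 kb from its start site, and the 2 H2A.Z peaks inside the windows had scores near the minimum of 50.

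The H3K4ox replicates held mostly the same sites in these windows. Of the replicate 1 peaks 29 of 34 met a replicate 2 peak (85.3%, 95% Wilson interval 69.9 to 93.6), and 33 of 37 did so in the other direction (89.2%, 75.3 to 95.7), against 67.8% and 70.2% over the genome. The intervals treat peaks as independent, though 17 of the 34 and 18 of the 37 were at SNAI1. There the 2 lists covered 51.3% and 47.8% of the window, and the genome's shares were not matched for this. The 9 peaks found in 1 replicate had scores of 50.7 to 94.8 (median 58.0) and widths of 546 to 917 bp. The 62 found in both had scores of 53.9 to 1073 (median 165.5) and widths of 529 to 5755 bp. Every peak in the windows with a score above 94.8 was in both replicates.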

How the data were processed

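ChIP-seq peak lists of 4 libraries from MDA-MB-231 cells were analysed, 1 list per library, with samples grouped by the antibody in the labels. Per the file headers, each peak is named after the MACS program, and the authors deposited 1 score per peak, with no unit stated. The header lines of the H3K4ox lists name an input and the others do not, and all contain an undefined term, multilocus. Bowtie, TopHat and the build hg19 appear in the submitters' processing notes, without roles. The sequencing depth is unknown, and the precision rests on the number of peaks and on the 2 H3K4ox replicates.

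Gene positions in hg19 came with the choice of genes, and the members and lists were chosen with earlier results of these data known. No hg19 annotation was used, so exons, introns and UTRs were not assigned, and a list of other regulators of the transition was not counted. The strand of each gene was entered by hand. Those of ZEB1 and ZEB2 were checked against the RefSeq promoter sequences, which held no entry for SNAI1, SNAI2 or TWIST1. Distances run from the start site to the nearest peak edge. Genome densities used the span between the outermost peaks of 24 chromosomes (3010 Mb), and windows of equal length tiled that span. For each gene and list the best-scoring peak and the peak nearest the start site were named, with every joint site, and other peaks were named after their values were seen. Overlap meant at least 1 bp. The code that counts and overlaps intervals was checked on simulated intervals, which test no peak count. Python 3.11.15, numpy 2.4.6, pandas 2.3.3, scipy 1.17.1 and matplotlib 3.10.9 were used. Alternatives were other flanks, peak centres, stricter and equally long lists, other overlaps and start windows, leaving out each H3K4ox replicate and, chosen after seeing the data, other references for the density.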

Additional observations from a re-analysis of the deposited data

How the results depend on the processing

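Over the 5 windows together and the start sites, 43 values stayed within their replicate SD, counting interval or 1.5 times the count, 17 left it and 4 left it and crossed the genome's own density. For single genes the numbers were 99, 23 and 8. Part of the values that stayed were bound to stay, so these numbers overstate stability. Leaving out 1 of 2 replicates always gives a density within their SD. A count of 0 stays 0 in smaller windows, by peak centres, with shorter lists or against another reference. For H2A.Z the list of equal length is the whole list. Values that stayed within their wide counting intervals could cross the genome's own density too. RUVBL2 at SNAI2 (0.627) was 1.32 with 50 kb flanks, 1.25 with the upper 50% of the list and 1.78 with equal lists. In the same settings RUVBL2 at ZEB1 (0.983) was 1.499, 1.31 and 1.86. H2A.Z at SNAI1 (1.70) was 0.445 against 500 kb on each side. The relative density of H3K4ox over the 5 windows (0.766) was 0.319 with no flanks, 0.701 when a peak's centre had to lie in the window, 1.04 with 50 kb flanks, 1.08 with the upper 50% of each list by score and 1.88 with lists of equal length (38584 peaks). Against the genes' own chromosomes it was 0.697, and against 500 kb on each side 0.828. The H2A.Z value (0.279) was 0 with no flanks, 0 with the upper 50%, 0.139 by peak centres and 0.908 with 50 kb flanks. The RUVBL2 value (1.08) was 0.535 with no flanks and 1.57 with 50 kb flanks. At SNAI1 leaving out the flanks gave 0 for all 3 antibodies, since its gene is bare, and H2A.Z was also 0 by peak centres and with the upper 50%. At SNAI2 H2A.Z was 0 with no flanks and with the upper 50%. At ZEB1 H3K4ox went from 0.553 to 1.86 with lists of equal length. At SNAI1 H3K4ox went from 4.60 to 6.83 with the upper 50% and 11.9 with equal lists. The H2A.Z values of 0 at SNAI1 and SNAI2 follow from 1 peak per window. Their scores of 52.6 and 51.4 were below the list's median of 66.7. The SNAI1 peak had its centre outside the window, and the SNAI2 peak lay outside the gene. Apart from these values and the bare gene, the cause of the shifts was not tested.

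The 3 joint sites became 0 with no flanks, 6 with 50 kb flanks, 1 with the upper 50%, 1 with equal lists and 0 with 200 bp intervals at the peak centres. They stayed at 3 without either H3K4ox replicate. The share of H3K4ox regions meeting RUVBL2 (58.6%) was 100% with no flanks (6 of 6 regions), 80% with equal lists (8 of 10) and 27.8% with 200 bp centres, and the share meeting H2A.Z (10.3%) was 0% with no flanks. Start windows of 5 kb on each side held 1 gene for H3K4ox and 1 for RUVBL2, in place of 0 and 0. No paired analysis was possible because H2A.Z and RUVBL2 have 1 library each, so no groups share 2 replicate numbers.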
